A study of Mus musculus with 60 samples.

Results

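The cytosolic ribosomal protein genes were examined in the heart, gastrocnemius muscle and neocortex of mice. They were chosen by name, as every probe set whose gene symbol starts with Rpl or Rps and a digit, or is Rpsa or one of Rplp0 to Rplp2, without the Rps6k kinases and the pseudogenes. This gave 106 probe sets of 50 genes, of 34945 probe sets and 18193 genes with 1 symbol in all. Of these 50 genes, 26 are named for the large subunit of the ribosome (Rpl, Rplp) and 24 for the small subunit (Rps, Rpsa). The name rule also takes in Rpl7l1 and Rps19bp1, neither of them an established protein of the mature ribosome. Rpl7l1 is a paralogue of Rpl7, and Rps19bp1 encodes a protein that binds Rps19. Another 110 probe sets carry a member name together with other symbols and were left out, so that genes such as Rpl3, Rpl10, Rpl36a and Rplp1 are not among the 50. Fau, a ribosomal protein gene whose name does not follow the pattern, is not a member and is described with the other genes of translation.

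RNA from 60 tissue samples of male B6C3F1 mice, the F1 hybrid of C57BL/6 and C3H/He, was hybridised to 1 Affymetrix Mouse Genome 430 2.0 array each, with 5 biological replicates per tissue and group. Young controls were 5 months old and ate the control diet. Old controls were 30 months old on the same diet. Old CR mice, of the same age, had been calorie restricted from 14 months on (the labels give 40%, while the weekly energy allowances in the study's methods amount to a milder restriction), and old resveratrol mice had eaten the control diet with 4.9 mg of resveratrol per kg of bodyweight from 14 months on. All mice were housed singly and fed a purified diet (AIN-93M), the tissues were frozen at once, and total RNA of the whole tissue was used, so that fewer cells of a type and less RNA per cell cannot be told apart. No label ties the 3 tissues to the same animal.

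Each ribosome holds 1 copy of nearly every ribosomal protein on a scaffold of ribosomal RNA, and the genes are transcribed at high rates in all tissues. Their mRNAs begin with a C followed by a stretch of pyrimidines, the 5′ terminal oligopyrimidine (TOP) motif, through which the nutrient-sensing kinase mTORC1 controls their translation. This control acts on translation, so the level of an mRNA does not show how much of it is translated. A few members have paralogues that are expressed in some tissues only, such as Rpl3l in striated muscle.

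The pyrimidine stretch can be seen in the DNA around the annotated start sites. The 8 sequences below are examples. Rps6, Rps18, Rps27, Rplp2 and Rpl35 start with C and pyrimidines, and Rpl27a changed most of all members. The paralogues Rps27l and Rpl3l have no run of C and T over the annotated start. The same holds for other members that are not shown, among them Rpl4, Rplp0, Rpl6, Rps25, Rpl37 and Rpsa. Each sequence holds the 40 bases before and the 20 bases from the annotated start on. The sequences are taken from RefSeq (mouse build GRCm38.p6) and written 5′ to 3′ on the strand of the gene. Capitals mark the unbroken run of C and T that covers the start.
Rps6 (chr4:86857348-86857407, minus strand): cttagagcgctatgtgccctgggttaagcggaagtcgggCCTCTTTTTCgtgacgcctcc
Rps18 (chr17:33955646-33955705, minus strand): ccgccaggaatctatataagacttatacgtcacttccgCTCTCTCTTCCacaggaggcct
Rps27 (chr3:90213629-90213688, minus strand): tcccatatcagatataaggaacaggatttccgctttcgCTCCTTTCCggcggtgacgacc
Rpl35 (chr2:39005112-39005171, minus strand): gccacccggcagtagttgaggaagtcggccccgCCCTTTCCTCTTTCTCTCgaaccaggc
Rplp2 (chr7:141447611-141447670, plus strand): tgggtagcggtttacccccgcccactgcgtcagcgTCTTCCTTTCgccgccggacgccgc
Rpl27a (chr7:109519155-109519214, plus strand): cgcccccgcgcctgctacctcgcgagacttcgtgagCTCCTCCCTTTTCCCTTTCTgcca
Rps27l (chr9:66946046-66946105, plus strand): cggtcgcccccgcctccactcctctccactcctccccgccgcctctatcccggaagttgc
Rpl3l (chr17:24727786-24727845, plus strand): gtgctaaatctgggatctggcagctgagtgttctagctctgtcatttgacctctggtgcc

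The run of C and T over the start was 10 bases long in Rps6, 11 in Rps18, 9 in Rps27, 18 in Rpl35, 10 in Rplp2 and 20 in Rpl27a. A RefSeq window of 300 bases (250 before and 50 from the start on) was found for 44 of the 50 genes. Of these, 8 genes (18.2%) had C at the annotated start and at least 4 pyrimidines after it, against 3.01% of all 27025 genes in the table. An unbroken run of at least 8 pyrimidines over the start was found in 12 of them (27.3%), against 4.59% of all genes. With the first C allowed within 10 bases of the annotated start, 27 genes (61.4%) had the C and its 4 pyrimidines, against 34.4%. Besides this stretch, CCGGAA, the core bound by ETS factors, lay on either strand of the window in 28 genes (63.6%), against 16.7% of all genes, and GGGCGG, the core of the Sp1 box, in 26 (59.1%), against 38.2%. AANATGGC, the letters of the YY1 site, lay in 7 (15.9%), against 6.96%, and TATAAA in 6 (13.6%), against 15.7%. A match of letters is a description of the window and not a measured site.

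The test took in a gene if its brightest probe set had a mean signal in that tissue at or above the 40th percentile over the array, which 49 members passed in heart, 47 in muscle and 47 in neocortex. Rps16 passed in no tissue, Rpl39l in heart only, Rps4l in heart and neocortex, and Rpl3l in heart and muscle. The single-symbol probe set of Rps16, a protein of the small subunit, gave signals from 0.796 to 25.03 over all arrays and was not tested. Signals of different probe sets are not compared, since each binds its target with its own strength. With 5 arrays a group, the number of arrays limits the precision, and all changes below are differences of mean log2 signal.

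Some array measures moved with the groups. In heart, the log2 signal of the 3′ over the 5′ probe set of Actb, a measure of RNA integrity and labelling, was 1.26 to 1.66 in old controls and 0.61 to 0.87 in young controls (exact permutation test, two-sided, p = 0.00794, the smallest that 5 arrays against 5 can give). It was 0.66 to 0.89 in old CR and 0.68 to 0.95 in old resveratrol (exact permutation test, p = 0.00794 each). The same measure of Gapdh in heart was -0.08 to 0.25 in old controls and -0.28 to -0.14 over the other 3 groups (exact permutation test of each comparison, p = 0.00794), and in muscle it was -0.22 to 3.23 in old controls and -0.30 to -0.23 in the diet groups (exact permutation test, p = 0.00794 each). In muscle, the mean log2 signal of the poly-A spike-in controls was 6.40 to 8.10 in the 2 control groups and 9.16 to 10.6 in the 2 diet groups (exact permutation test of each diet against old controls, p = 0.00794). In neocortex, the Actb measure was 0.45 to 0.60 in old controls, 0.66 to 0.77 in old CR and 0.76 to 1.01 in old resveratrol (exact permutation test, p = 0.00794 each), and the spike-in mean was 8.49 to 9.25 in old controls and 9.46 to 10.04 in old resveratrol (exact permutation test, p = 0.00794). Adjusted over the 27 such tests, these p values were 0.0165. All comparisons with old controls rest on these arrays, and the part of these measures in the results was not tested. Single arrays also stood apart. Old control replicate 1 in muscle had a Gapdh 3′ to 5′ difference of 3.23, old CR replicate 2 in muscle had a summed signal of 4 adipocyte genes of 111300 against a median of 35990 in its group, and young control replicate 1 in heart had a summed signal of 7 lymphocyte genes of 12020 against a median of 570.5 in its group. The marker genes of the labelled tissues were bright where they should be: the 5 cardiomyocyte genes summed to 292700 to 484000 in heart, the 5 fast fibre genes to 186900 to 380600 in muscle and the 5 neuron genes to 60290 to 78330 in neocortex.

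With arrays scaled on the trimmed mean, most ribosomal protein genes were highest in heart and lowest in neocortex when young controls were compared. Of 46 members tested in all 3 tissues, 39 were higher and 2 lower in heart than in neocortex, with a median difference of 1.06, against 0.06 over all 11111 genes. Between muscle and neocortex 35 were higher and 3 lower in muscle (median 0.73 against 0.05), and between heart and muscle 29 were higher and 3 lower in heart (median 0.41 against 0.08). Between tissues most genes differ: 70.5% of all genes passed the same test between heart and neocortex, 72.7% between muscle and neocortex and 58.2% between heart and muscle, so the shares of members called (89.1%, 82.6% and 69.6%) stand against a high background. Quantile normalization over all arrays left 22 higher and 10 lower between heart and neocortex, 18 and 11 between muscle and neocortex, and 15 and 11 between heart and muscle. The medians were then 0.15, 0.05 and 0.08, against 0.15, 0.14 and 0.06 over all genes, so that the members no longer stood above all genes between either muscle tissue and neocortex. Tissue and array processing cannot be told apart, because no array holds more than 1 tissue.

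Rplp0, the core protein of the ribosomal stalk, differed most between heart and neocortex. Its signal on the 5 young control arrays was 43910, 40440, 48650, 46950 and 37170 in heart and 32250, 34580, 32160, 25420 and 24980 in muscle. In neocortex it was 6744, 7707, 7453, 7132 and 7162. The values did not overlap between neocortex and either muscle tissue, with a difference of 2.58 ± 0.08 (SE) between heart and neocortex (adjusted p = 4.03e-34) and 2.03 ± 0.08 between muscle and neocortex (adjusted p = 3.21e-29). Rps27l, a paralogue of Rps27 that is a known target of p53, was brightest in muscle with a mean of 11560 ± 412 (SD, n = 5), against 8050 ± 1172 in heart and 1582 ± 104.3 in neocortex. Its difference was 2.87 ± 0.13 between muscle and neocortex and 2.34 ± 0.13 between heart and neocortex. Rpl22, an RNA-binding protein of the large subunit, was 1.70 ± 0.10 higher in heart and 1.27 ± 0.10 higher in muscle than in neocortex.

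Few members ran the other way. Rpl12, a protein at the base of the stalk, was lower in heart (mean 226.4) than in neocortex (mean 484.8), by 1.26 ± 0.29 (adjusted p = 0.000119), and it was 0.75 ± 0.29 lower in muscle than in neocortex. Rps19bp1 was 1.18 ± 0.14 lower in muscle and 0.64 ± 0.14 lower in heart than in neocortex. Rpl14 was 0.71 ± 0.32 lower in muscle than in neocortex (adjusted p = 0.0409). In heart against muscle, the genes with lower signals were Rpl22l1, the paralogue of Rpl22 (difference of -0.88 ± 0.13), Rpl37 (-0.86 ± 0.15) and Rps27l (-0.53 ± 0.13). The largest excesses of heart over muscle were those of Rpl41 (1.07 ± 0.20), Rps10 (1.03 ± 0.16) and Rps15 (0.92 ± 0.13). For these 3 genes young control replicate 4 was the lowest of the muscle arrays, with 6423 for Rpl41 where the other 4 arrays gave 20630 to 24830.

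**Figure D1:**
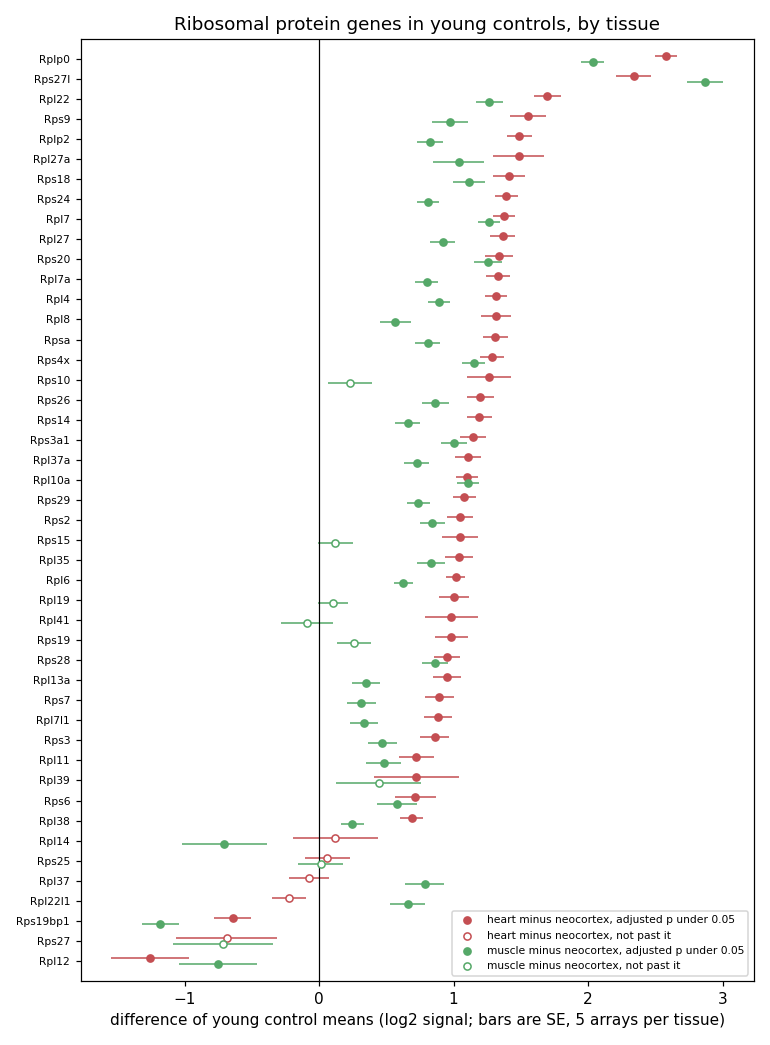
Difference of young control mean log2 signal from neocortex for each member tested in all 3 tissues (horizontal axis, log2; bars are SE, 5 arrays per tissue), in heart and in muscle. Filled points passed an adjusted p of 0.05. Most points lie to the right of 0, and Rplp0 and Rps27l lie farthest out, while Rpl12 and Rps19bp1 lie to the left.

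The question of the study was how age and the diets change expression, and the mean over the tested members gives a first view of each array. Relative to the young control mean, it was 0.02 ± 0.06 (SD, n = 5) in old control hearts, -0.06 ± 0.04 in old CR hearts and -0.05 ± 0.07 in old resveratrol hearts. In muscle it was 0.21 ± 0.05 in old controls, 0.50 ± 0.27 in old CR and 0.42 ± 0.05 in old resveratrol. In neocortex it was 0.01 ± 0.06, 0.16 ± 0.08 and 0.20 ± 0.03 in the same order. In heart 1 old resveratrol array, at -0.173, lay just below the lowest young control array, at -0.167, and the other old arrays lay within the young control range, whereas all 15 old muscle arrays lay above the 5 young ones. Old CR replicate 2 in muscle stood highest at 0.91, with the other 4 of its group at 0.14 to 0.52.

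**Figure D2:**
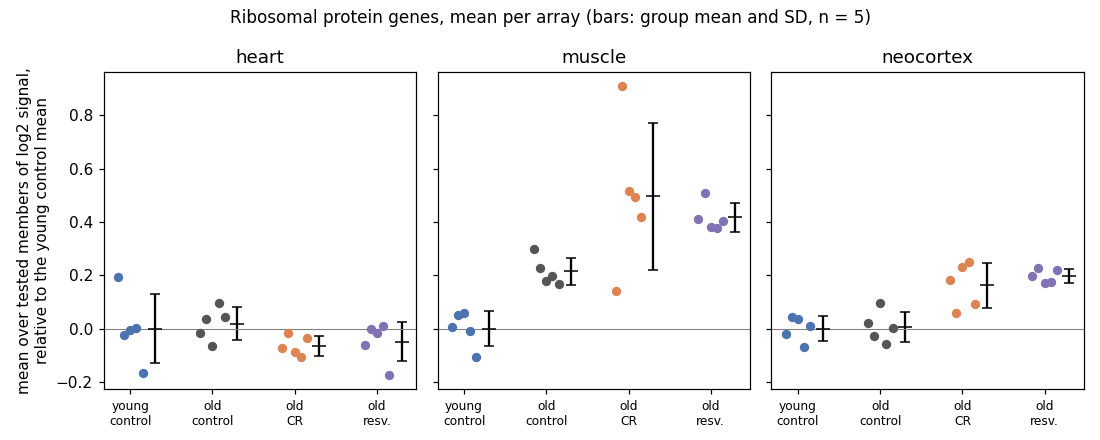
Mean over the tested members of log2 signal on each array, relative to the young control mean of the tissue (vertical axis), for the 4 groups in heart, muscle and neocortex. Points are arrays, and bars are the group mean and SD of 5 arrays. In muscle the old arrays lie above the young ones, and in neocortex the old resveratrol arrays lie above all old control arrays.

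With age, very few members changed. In heart, 2 of the 49 tested members rose and 1 fell between young and old controls, where 7.05% of all genes rose and 3.79% fell. The members that rose were Rps6 and Rpl27a, and the one that fell was Rps3a1. In muscle and neocortex no member passed the test (limma), where 0.429% and 1.46% of all genes did. At an unadjusted p under 0.05 there were 18 members in muscle and 3 in neocortex, and the lowest adjusted p of a member was 0.148 and 0.215, respectively. The median change of the members in muscle was 0.27, against 0.03 over all genes. Of 47 members 39 were above 0, where 54.4% of all genes were. In heart and neocortex the members' median was 0.02 and 0.00. With quantile normalization the members' median in muscle was 0.14, against 0.065 over all genes.

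Rps6, the small subunit protein phosphorylated by S6 kinases downstream of mTORC1, gave signals of 659.8, 503.1, 461.9, 663 and 512.8 in young control hearts. In old control hearts it gave 708.4, 906.1, 967.3, 1049 and 689.9. All old values lay above all young ones, with a rise of 0.62 ± 0.15 (SE, adjusted p = 0.00687). Rpl27a, a large subunit protein, gave 800, 895.5, 977.5, 1085 and 872.6 in young and 1254, 1000, 1189, 1272 and 1249 in old control hearts. The ranges overlapped at 1 old array, and the rise was 0.37 ± 0.12 (adjusted p = 0.041), although the mean of its probe sets had a change of -0.11. The other probe set in that mean had a signal of 56.86 in heart, too dim to be tested. Rps3a1, a small subunit protein at the mRNA exit, fell by 0.27 on the log2 scale, from a mean of 33750 to 27680 (SE 0.09, adjusted p = 0.049). The calls of Rpl27a and Rps3a1 were each lost when 7 of the 10 arrays of this comparison were left out singly, all but young control replicates 3 and 4 and old control replicate 2 for Rpl27a and all but young control replicates 3 and 5 and old control replicate 4 for Rps3a1 (adjusted p up to 0.0926 and 0.121). The count of 3 members became 1 without young control replicate 1 or 2 or old control replicate 1, 3 or 5.

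In muscle, Rplp2, an acidic protein of the stalk, had the change with the lowest adjusted p among the members named here. Its signal was 25100, 29910, 25050, 23130 and 21530 in young and 37040, 31440, 33450, 30810 and 30150 in old controls. The groups did not overlap, and the difference was 0.39 ± 0.12 (adjusted p = 0.148). Rpl22 (0.34 ± 0.14), Rpl22l1 (0.35 ± 0.16) and Rpsa (0.27 ± 0.13), the laminin receptor and small subunit protein, had adjusted p values of 0.279, 0.337 and 0.35. With young control replicate 4 and old control replicate 1, which stood apart, and old CR replicate 2 left out, a choice made after seeing the data, 9 members rose and 1 fell with age in muscle. In that setting 424 of all genes rose and 293 fell, against 33 and 22 with all arrays. With arrays centred on their medians, 7 members rose and none fell, where 305 of all genes rose and 19 fell. The same centring moved the median over all genes from 0.03 to 0.22.

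Under CR in heart, members were called in about the same shares as all genes. Of 49 members 4 rose and 8 fell against old controls, where 7.94% of all genes rose and 14.1% fell, so that 24.5% of members and 22% of all genes were called. Those that rose were Rps3a1, Rpl4, Rpl6 and Rps9, and those that fell were Rpl7l1, Rpl41, Rps27l, Rpl27a, Rps2, Rpl37, Rplp2 and Rpsa. Under resveratrol none rose and 5 fell (Rpl37, Rpl27a, Rplp2, Rpl3l and Rpl7l1), where 7.08% of all genes rose and 10.5% fell. Both diets are compared with the same old control arrays. The median change was -0.04 under CR and -0.05 under resveratrol, against 0.00 and 0.01 over all genes. With every probe set tested on its own, 3 of 96 member probe sets with 1 symbol rose and 10 fell under resveratrol. Of 104 tested probe sets with several symbols that include a member name, 9 rose and 8 fell. Of all probe sets tested, 2030 rose and 2065 fell. The number tested in all is not given, so these counts show the balance of rises and falls and not a share.

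Rplp2 gave 44180, 38290, 37730, 45520 and 40870 in old control hearts and 28780, 31480, 26710, 31820 and 28450 in old CR hearts. In old resveratrol hearts it gave 29810, 31340, 31660, 29260 and 26630. Neither diet group overlapped old controls, with a fall of 0.49 (SE 0.08, adjusted p = 0.000115) under CR and of 0.47 (SE 0.08, adjusted p = 0.000235) under resveratrol, and young controls gave 35030 to 42380. Rpl27a gave 836.7, 846.2, 748, 756.4 and 724.2 in CR hearts, against the 1000 to 1272 of old controls listed above. It fell by 0.61 (SE 0.12, adjusted p = 0.000422), and by 0.60 under resveratrol (adjusted p = 0.000609). Both groups lay wholly below old controls.

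Rps27l gave 7419, 8129, 7241, 7575 and 6565 in old control hearts and 4502, 5003, 4514, 4145 and 5524 in old CR hearts. The ranges did not overlap and it fell by 0.64 (SE 0.10, adjusted p = 4.61e-05) under CR, while under resveratrol its change was -0.14 ± 0.10 (adjusted p = 0.384). Rpl7l1 fell by 0.77 (SE 0.11, adjusted p = 1.07e-05) under CR and by 0.41 (SE 0.11, adjusted p = 0.00837) under resveratrol, again with no overlap of the groups. Another probe set of Rpl7l1 rose by 0.38 under resveratrol (adjusted p = 0.0405 with every probe set tested on its own), so this gene has no single direction. Rpl3l, the paralogue of Rpl3 made in heart and skeletal muscle, gave 10500, 10690, 10860, 10480 and 9405 in old control hearts and 7784, 9159, 8318, 8211 and 5079 under resveratrol. It fell by 0.46 (SE 0.13, adjusted p = 0.0175) without overlap, a call that was lost without old resveratrol replicate 5 (adjusted p = 0.0564).

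Rpl41, the smallest ribosomal protein, fell by 0.66 under CR (SE 0.17, adjusted p = 0.00749), with 1 CR array of 36140 inside the old control range of 34190 to 44340. Of its 4 tested probe sets, those not chosen gave changes from -0.51 to 0.52. Without probe sets ending in x or s its change was 0.21, from a probe set that averaged 165.9 in heart. The chosen one averaged 33000. Rpl4, a large subunit protein lining the exit tunnel, rose by 0.26 (SE 0.07, adjusted p = 0.0129), from a mean of 32500 to 39010, and Rps3a1 rose by 0.30 (SE 0.09, adjusted p = 0.0188, or 0.0551 without old control replicate 1). Rpl6 rose by 0.21 and Rpsa fell by 0.25. Leaving out any array but old control replicate 4 ended the call of Rpl6 (adjusted p up to 0.11), and any but old control replicates 2 and 3 that of Rpsa (adjusted p up to 0.128). Centring arrays on their medians moved the median over all genes from 0.00 to -0.36 under CR in heart. No member then rose and 33 fell, where 288 of all 13285 genes rose and 5103 fell. Rpl4, Rpl6 and Rps3a1 had changes below 0 in that scaling. Under resveratrol the same centring moved the median of all genes to -0.13. It gave 9 falls, where 396 of all genes rose and 2197 fell.

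Markers of other cells moved in the heart on the same arrays. Of 9 macrophage genes, 5 rose under CR and 6 under resveratrol, and none fell, with summed signals of 13440 to 19020 in old controls, 20920 to 25800 under CR and 18560 to 28270 under resveratrol. Of 6 fibroblast genes, 2 rose under CR and 3 under resveratrol, with sums of 16920 to 35940 in old controls, 41840 to 48750 and 35590 to 46980. Of 3 adipocyte genes tested, 2 rose under CR and 1 under resveratrol, and the sum of all 4 was 26300 to 36060 in old controls, 42860 to 51520 and 38530 to 53280. Of 2 red blood cell genes tested, 1 rose under each diet, and the sum of 3 was 1858 to 3153, 5535 to 22610 and 3369 to 7982. The 5 fast fibre genes summed to 6741 to 15240 in old controls and 2929 to 6664 under CR, where the 1 gene tested fell, and to 8054 to 21150 under resveratrol. The 4 plasma cell genes summed to 7088 to 9800 in old controls and 4968 to 6883 under CR, with 1 fall, and to 5743 to 7515 under resveratrol. Their part in the changes of the ribosomal protein genes was not tested.

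In muscle, more members rose than fell under both diets, while the share called was close to that of all genes. Under CR 14 of 47 members rose and 1 fell, where 17.5% of all genes rose and 13.6% fell, and under resveratrol 8 rose and 2 fell, where 9.42% rose and 9.26% fell. The share of members called was 31.9% under CR and 21.3% under resveratrol, against 31.2% and 18.7% of all genes. The median change was 0.21 under CR and 0.18 under resveratrol, against 0.10 and 0.07 over all genes. Of 103 tested probe sets with several symbols that include a member name, 41 rose under CR and 23 under resveratrol, and none fell. Of all probe sets tested, 5243 rose and 3626 fell under CR, and 2892 rose and 2629 fell under resveratrol. As in heart, the number tested in all is not given. The counts show the balance of rises and falls, and the shares of probe sets called are not compared. Of 22 tested members named for the small subunit, Rps19bp1 included, 8 rose under CR and 5 under resveratrol. Of 25 named for the large subunit, Rpl7l1 included, 6 and 3 did. The genes that rose most under CR were Rpl27a, Rps27 and Rps25, and under resveratrol Rpl27a, Rps18 and Rpl37.

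Rpl27a had the largest change of any member in any comparison. In muscle it gave 899.8, 461, 415.4, 500.5 and 341.7 in old controls and 1527, 2414, 1653, 1604 and 1707 under CR. Under resveratrol it gave 1849, 1530, 1820, 1698 and 1412. Every diet array lay above every old control array, and above the 481.7 to 958.6 of young controls, with a rise of 1.83 ± 0.21 (SE, adjusted p = 3.32e-06) under CR and 1.74 ± 0.21 (adjusted p = 1.31e-05) under resveratrol. As each of the 10 arrays was left out in turn, the adjusted p stayed at or below 2.16e-05 and 8.74e-05. The chosen probe set of Rpl27a averaged 1165 in muscle, and those of Rps25, Rps27 and Rps6 averaged 529.5, 278.8 and 535.7. Those of Rps18 and Rpl7 averaged 31360 and 22240. Whether the dimmer probe sets read the main transcript of their gene was not tested.

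Rps25, a small subunit protein that some viral internal ribosome entry sites need, gave 322.9, 383.5, 478.2, 370.9 and 422.2 in old controls, 639.9, 1036, 695.4, 717.1 and 752.8 under CR, and 543, 554.4, 528.8, 605.1 and 572.8 under resveratrol. Both diet groups lay above old controls, with rises of 0.95 ± 0.15 (adjusted p = 8.21e-05) and 0.51 ± 0.15 (adjusted p = 0.0172). Rps27, a zinc finger protein of the small subunit, rose by 0.96 ± 0.26 under CR (adjusted p = 0.00936), from 159.8 to 259.7 over the old control arrays to 297 to 521.4. Its change under resveratrol was 0.54 ± 0.26 (adjusted p = 0.159). Rps18, at the head of the small subunit, gave 31890, 22680, 21720, 23230 and 21580 in old controls and 38380, 38390, 41540, 37490 and 36500 under resveratrol. The groups did not overlap and it rose by 0.68 ± 0.17 (adjusted p = 0.00742). Its brightest probe set not ending in x or s, which averaged 13870 in muscle, gave a change of -0.27. The mean of all its probe sets gave one of -0.08, and includes probe sets at 18.59 to 34.51, too dim to be tested. Rpl37, a large subunit protein, rose by 0.63 ± 0.15 under resveratrol (adjusted p = 0.00451), and Rpl7 rose by 0.43 ± 0.11 under CR and by 0.47 ± 0.11 under resveratrol (adjusted p = 0.0058 and 0.00518). With arrays centred on their medians the change of Rpl7 under CR was -0.01.

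Rpl4 fell in muscle, by 0.33 under CR (SE 0.12, adjusted p = 0.0435) and by 0.37 under resveratrol (SE 0.12, adjusted p = 0.035). Rplp0 fell by 0.33 under resveratrol (SE 0.11, adjusted p = 0.0419), from a mean of 35210 to 27920, with no overlap of the groups. Leaving out any single array but old CR replicate 2 ended the first call, any but old control replicate 1 and old resveratrol replicate 2 the next, and any but old resveratrol replicate 2 that of Rplp0 (adjusted p up to 0.114, 0.0807 and 0.105). Rps6 rose by 0.55 ± 0.18 under resveratrol (adjusted p = 0.0329) and Rpsa rose by 0.37 ± 0.13 under CR (adjusted p = 0.0355), each a call that 7 of 10 single arrays could end (adjusted p up to 0.0849 and 0.0947). These were all arrays but old control replicates 1 and 2 and old resveratrol replicate 5 for Rps6, and all but old control replicate 1 and old CR replicates 1 and 5 for Rpsa. Both turned when the probe sets of a gene were averaged, to -0.78 for Rpsa and -0.05 for Rps6, and Rpsa was at -0.08 with arrays centred on their medians. The other probe set in these averages had a mean signal of 29.45 for Rpsa and 53.01 for Rps6 in muscle, too dim to be tested.

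The scaling of the arrays and single arrays set much of the muscle counts. Without the 3 arrays that stood apart, 16 members rose and 2 fell under CR, and 17 rose and 3 fell under resveratrol. Of all genes, 2392 rose and 1935 fell under CR in that setting, and 2007 rose and 1903 fell under resveratrol. With old control replicate 1 and old CR replicate 2 left out, 12 members rose and 1 fell under CR. Centring arrays on their medians moved the median over all genes to -0.34 under CR and -0.20 under resveratrol. In that scaling 3 members rose and 11 fell under CR, where 472 of all 12831 genes rose and 4741 fell. Under resveratrol 1 rose and 4 fell, where 374 of all genes rose and 2645 fell. Centred on the 90th percentile, 20 members rose and none fell under CR, where 2868 of all genes rose and 1339 fell. Under resveratrol 9 rose and none fell there, where 1496 of all genes rose and 997 fell. The median over all genes was then at 0.20 and 0.12. With quantile normalization 10 members rose and 3 fell under CR, where 1726 of all genes rose and 1746 fell. The count under resveratrol was 5 or 6, in place of 10, without old control replicate 2, 3, 4 or 5 or old resveratrol replicate 1, 3 or 4. Rpl27a and Rps25 had rises under CR past the threshold in every one of these scalings.

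Markers of other cells were read on the same muscle arrays. Of 9 macrophage genes, 3 rose and none fell under each diet, with summed signals of 5829 to 7882 in old controls, 7330 to 14390 under CR and 8057 to 16720 under resveratrol. Of 4 adipocyte genes 1 rose under CR and none under resveratrol, with sums of 27410 to 42000 in old controls, 27780 to 111300 under CR and 25880 to 43380 under resveratrol. Of 6 fibroblast genes 2 fell under CR and none passed under resveratrol, with sums of 22110 to 35160, 17610 to 29240 and 17920 to 32550. Of 2 lymphocyte genes tested, 1 rose under each diet, and the sum of 7 was 332.5 to 450 in old controls, 481.3 to 722.4 under CR and 481.2 to 816.6 under resveratrol. None of the 4 plasma cell genes passed, with sums of 3555 to 4611, 3088 to 4552 and 4705 to 7193. Their part in the changes of the members, like that of the spike-in level given above, was not tested.

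**Figure D3:**
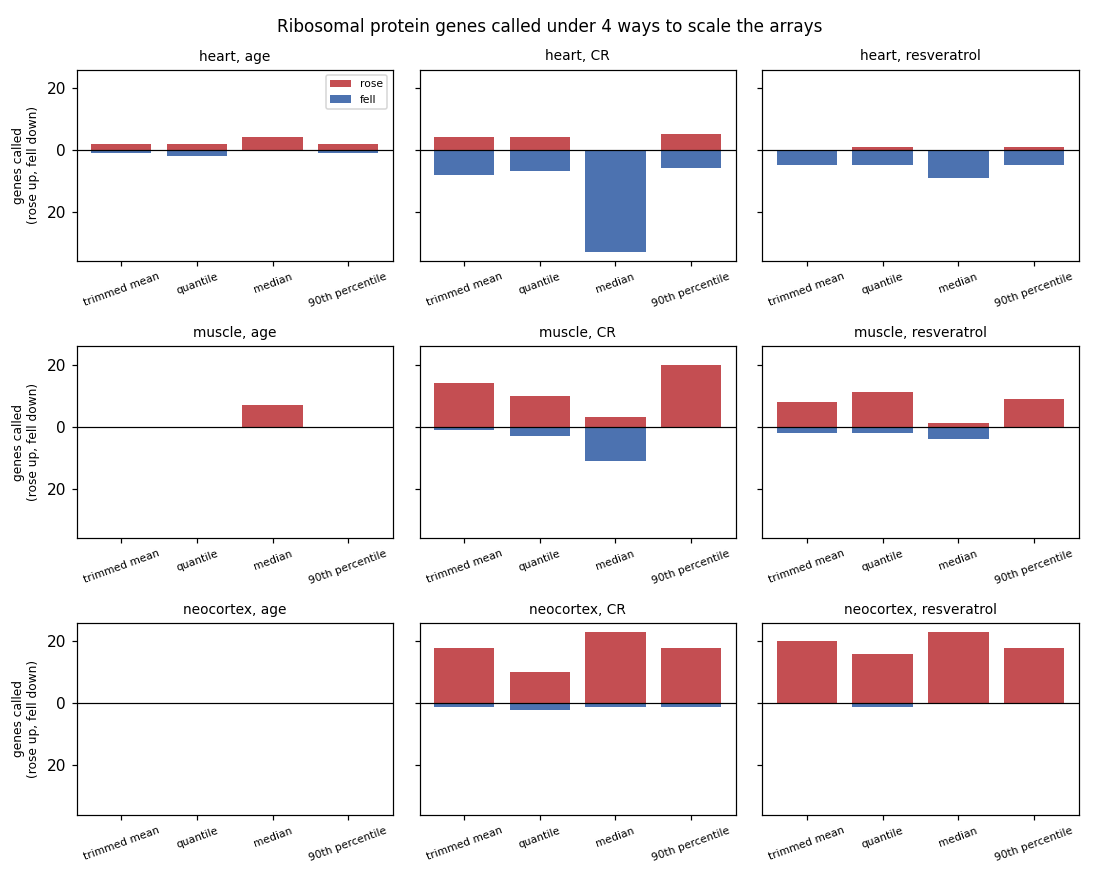
Number of members that rose (bars up) and fell (bars down) at an adjusted p under 0.05 with age, CR and resveratrol in each tissue, with arrays scaled on the trimmed mean, by quantile normalization, on the median and on the 90th percentile. Under both diets in neocortex rises outnumber falls in each scaling. With centring on the median, falls outnumber rises under both diets in muscle, as they do over all genes. No member then rises under CR in heart, where 288 of all genes rise and 5103 fall.

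In neocortex the members moved mostly one way. Under CR 18 of 47 members rose and 1 fell, where 13.1% of all genes rose and 17.5% fell, and under resveratrol 20 rose and none fell, where 12.3% rose and 13.9% fell. The share of members called was 40.4% and 42.6%, against 30.6% and 26.2% of all genes. The median change was 0.14 under CR and 0.16 under resveratrol, against -0.03 and -0.01 over all genes. Changes above 0 were found in 39 and 40 members, where 46.7% and 49.1% of all genes had them. The rises were small in size, since 34 of the 38 were under 0.5. By name, both subunits took part: 10 small and 8 large subunit members rose under CR, and 11 and 9 under resveratrol. The 9 include Rpl7l1.

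Rpl6, a large subunit protein, gave 9356, 8433, 10050, 8627 and 8505 in old controls and 12070, 11130, 12640, 11700 and 11080 under CR. Under resveratrol it gave 10610, 10590, 10200, 11370 and 11330. Neither diet group overlapped old controls, with rises of 0.38 ± 0.06 (SE, adjusted p = 3.35e-05) and 0.27 ± 0.06 (adjusted p = 0.00147), and young controls gave 8082 to 8979. Rpl7, another large subunit protein, gave 8408, 7986, 9340, 7679 and 6918 in old controls and 10060, 10820, 11500, 10120 and 9530 under CR. Under resveratrol it gave 10720, 10800, 10000, 11250 and 10450. Again no diet array reached down to the old controls, with rises of 0.37 ± 0.07 (adjusted p = 0.000437) and 0.41 ± 0.07 (adjusted p = 0.000216).

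Rplp0 gave 7480, 6826, 8152, 7253 and 6985 in old controls, 8612, 8093, 10120, 9335 and 8177 under CR and 8899, 8753, 9534, 9768 and 8836 under resveratrol. The CR arrays overlapped old controls and the resveratrol arrays did not, with rises of 0.27 ± 0.07 (adjusted p = 0.00313) and 0.32 ± 0.07 (adjusted p = 0.000826). Rpsa rose by 0.16 ± 0.06 (adjusted p = 0.0486) and by 0.32 ± 0.06 (adjusted p = 0.000344), the latter turning to -0.04 with the mean of its probe sets. The other probe set in that mean had a signal of 11.31 in neocortex, too dim to be tested. Rpl10a, a large subunit protein that some translating ribosomes hold in unequal amounts, rose by 0.14 ± 0.05 (adjusted p = 0.0428) and by 0.23 ± 0.05 (adjusted p = 0.00169). Rps27 rose by 1.198 ± 0.30 under CR (adjusted p = 0.00442), from 242.7 to 346.4 in old controls to 344 to 1119, with young controls at 255.2 to 734.8. Under resveratrol its change was 0.82 ± 0.30 (adjusted p = 0.0503). Of the calls under CR, that of Rpsa was lost with any array left out but old control replicate 3 and old CR replicates 2 and 5, and that of Rpl10a with any but old control replicates 1 and 3 and old CR replicate 5 (adjusted p up to 0.134 and 0.122).

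Rps6 gave 332.3, 346.1, 328.4, 346.7 and 334.9 in old controls and 426.9, 569.5, 555.3, 571.2 and 476.9 under resveratrol. The groups did not overlap and it rose by 0.61 ± 0.12 (adjusted p = 0.000527), while its change under CR was 0.20 ± 0.12 (adjusted p = 0.205). Rpl27a gave 502.6, 510.7, 533.4, 1121 and 1060 under resveratrol, against 327.7 to 499 in old controls. It rose by 0.93 ± 0.20 (adjusted p = 0.00148), with 2 arrays above 1000 and 3 just above the highest old control array, and by 0.54 ± 0.20 under CR (adjusted p = 0.0471). The call under CR was lost with any array left out but old control replicate 3 and old CR replicates 1 and 4 (adjusted p up to 0.134). Rpl7l1 rose by 0.34 ± 0.10 under resveratrol (adjusted p = 0.0139, or 0.0507 without old control replicate 5). Rpl37 was the single fall, by 0.39 (SE 0.09, adjusted p = 0.00307) under CR.

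In neocortex, quantile normalization left 10 rises and 2 falls under CR and 16 and 1 under resveratrol. Of all 13057 genes, 1872 rose and 1986 fell under CR there, and 1752 rose and 1645 fell under resveratrol. The members' median changes were 0.05 and 0.12, against 0.01 and 0.02 over all genes. Median centring gave 23 rises and 1 fall under CR and 23 and 0 under resveratrol. With it, 2073 of all genes rose and 1734 fell under CR, and 1826 rose and 1418 fell under resveratrol. Averaging the probe sets of each gene left 12 calls under resveratrol, where 854 of all genes rose and 1560 fell. Of 103 tested probe sets with several symbols that include a member name, 32 rose and 1 fell under CR. Under resveratrol 32 rose and 2 fell. Of all probe sets tested, 3174 rose and 3953 fell under CR, and 2978 rose and 3537 fell under resveratrol. Here too the counts over all probe sets show the balance of rises and falls and not a share. The macrophage genes, which mark microglia in this tissue, were read on the same arrays. Of 8 tested, none rose and 3 fell under CR, and 3 rose and none fell under resveratrol. Their summed signal was 10310 to 12250 in old controls, 8768 to 10670 under CR and 11430 to 17320 under resveratrol. Of 3 plasma cell genes tested, none passed under CR and 1 rose under resveratrol, and the sum of 4 was 4474 to 6535 in old controls, 5401 to 6550 under CR and 7044 to 8134 under resveratrol. The part of these genes in the members' changes was not tested.

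**Figure D4:**
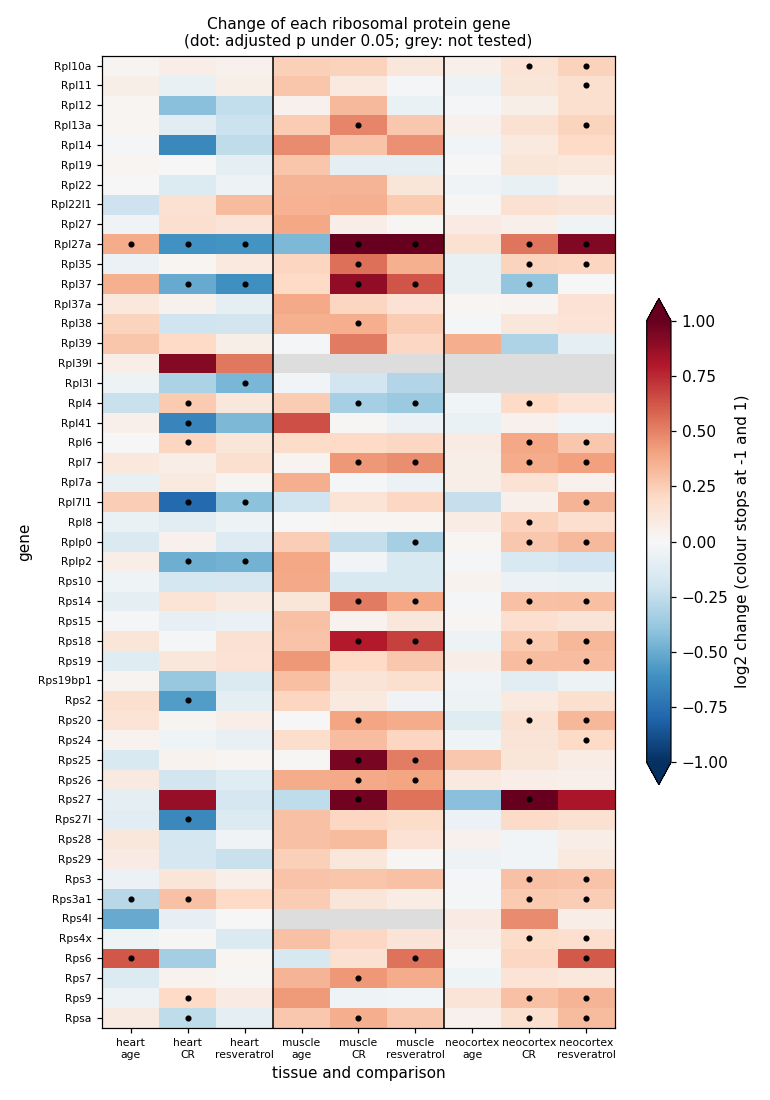
Log2 change of each member (rows) with age, CR and resveratrol in heart, muscle and neocortex (columns), with red for higher and blue for lower in the first group and colours that stop at -1 and 1. Dots mark an adjusted p under 0.05 and grey cells were not tested. The neocortex diet columns are mostly red, with 18 and 20 dots on rises, and the heart columns are mixed.

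The diets were also compared directly. In heart 2 of 49 members differed between CR and resveratrol, where 4% of all genes did. Rps27l was 0.51 ± 0.10 lower (adjusted p = 0.00384) and Rps2, a small subunit protein at the mRNA entry, 0.47 ± 0.10 lower (adjusted p = 0.00765) under CR, and neither overlapped between the diets. Rps2 gave 24670, 23400, 23450, 28100 and 34200 under CR and 35700, 38670, 35210, 34860 and 38960 under resveratrol. In muscle no member passed the test (limma), where 0.561% of all genes did, with 3 members at an unadjusted p under 0.05 and a lowest adjusted p of 0.186. At an unadjusted p of 0.01 or less there was 1 member, and 603 of all genes. In neocortex 3 of 47 differed, where 9.28% of all genes did: Rpl37 (-0.39 ± 0.09, adjusted p = 0.0133), Rps20 (-0.17 ± 0.05, adjusted p = 0.0263) and Rps6 (-0.41 ± 0.12, adjusted p = 0.033) were lower under CR. The call of Rps20 was lost without old CR replicate 2 or 5 or old resveratrol replicate 1 or 2 (adjusted p up to 0.0838), and that of Rps6 without old CR replicate 1, 2 or 4 or old resveratrol replicate 2, 3 or 4 (adjusted p up to 0.1). The count became 1 without old CR replicate 2 or old resveratrol replicate 2. Rps20 changed sign, to 0.34, when probe sets ending in x or s were dropped, and to 0.07 with the mean of its probe sets. Its probe sets without these endings averaged 79.66 and 82.14 in neocortex, against 12150 for the chosen one and a cut-off of 57.28.

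Whether a change differed between tissues was tested in 1 model of all 60 arrays. The change under CR differed between heart and muscle in 21 of 46 members (1 higher and 20 lower in heart), where 27.5% of all genes differed. Between heart and neocortex 5 members differed under CR, where 11.3% of all genes did, and between muscle and neocortex 7 did, where 23% did. Under resveratrol 10 members differed between heart and muscle (1 higher and 9 lower in heart), 5 between heart and neocortex and 4 between muscle and neocortex, where 23%, 7.41% and 15% of all genes did. The change with age differed in 10 members between heart and muscle (2 higher and 8 lower in heart), where 7.69% of all genes did. No member passed for age between heart and neocortex or muscle and neocortex (limma), where 4.91% and 0.459% did.

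Rpl27a went in opposite directions, falling in heart and rising in muscle under either diet. The difference between the changes was -2.44 under CR (adjusted p = 5.8e-10) and -2.34 under resveratrol (adjusted p = 2.97e-09). Rpl37 also fell in heart and rose in muscle under either diet, with a difference of -1.39 under CR (adjusted p = 8.1e-07) and of -1.24 under resveratrol (adjusted p = 9.11e-06). Rps27l, which fell under CR in heart and had a change of 0.20 ± 0.15 in muscle, differed by -0.85 (adjusted p = 0.000446). Rpl4 ran the other way, with a rise in heart and a fall in muscle under CR (difference of 0.59, adjusted p = 0.0001). Rplp0 fell in muscle and rose in neocortex under resveratrol (difference of -0.66, adjusted p = 8.51e-05).

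**Figure D5:**
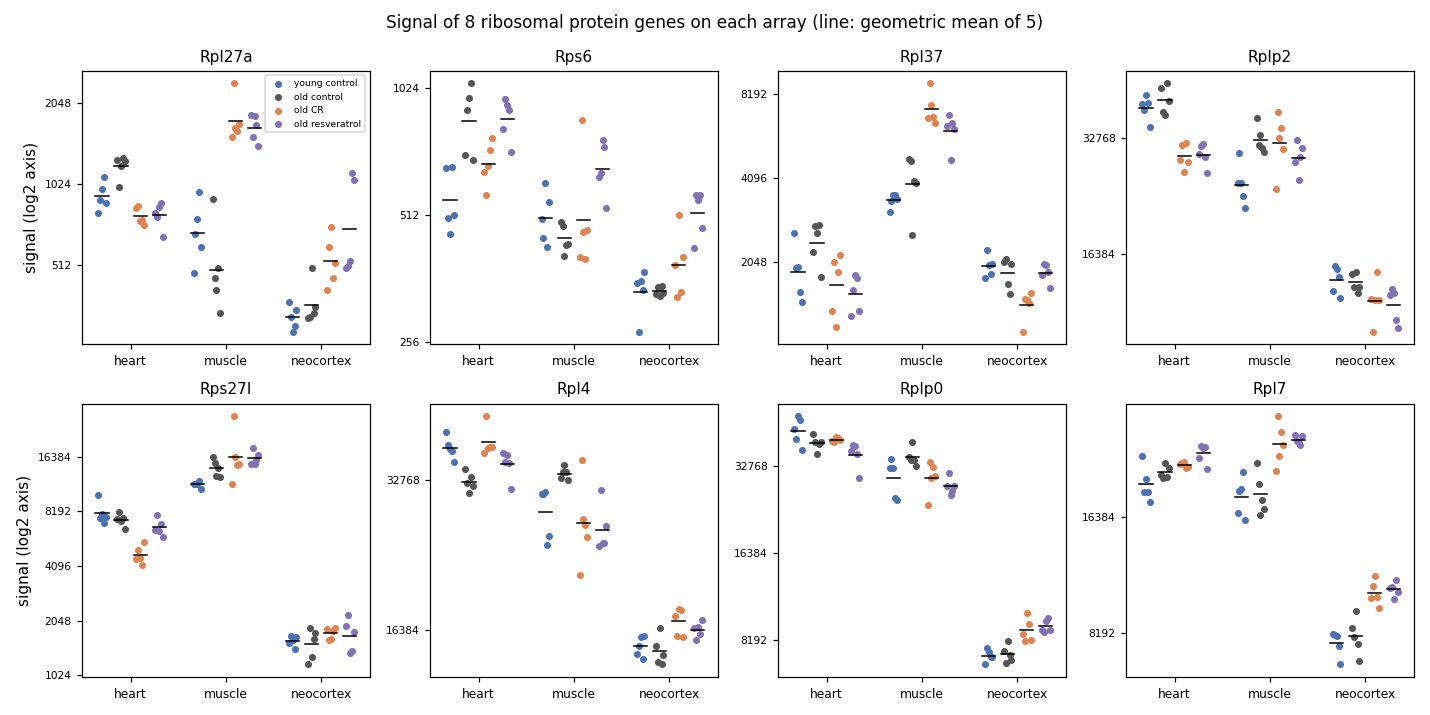
Signal of Rpl27a, Rps6, Rpl37, Rplp2, Rps27l, Rpl4, Rplp0 and Rpl7 on each array (vertical axes on a log2 scale, with a range of their own in each panel), by tissue and group. Each point is 1 array and each line a geometric mean of 5. Rpl27a lies lower in the diet groups than in old controls in heart, at 651.4 to 869, and higher in muscle, at 1412 to 2414.

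Paralogues of the same ribosomal protein were read side by side. Rps27l fell under CR in heart, where Rps27 had a change of 0.87 ± 0.44 (adjusted p = 0.163). Rps27 rose under CR in muscle and neocortex, where Rps27l had changes of 0.20 ± 0.15 (adjusted p = 0.322) and 0.19 ± 0.13 (adjusted p = 0.255). No test compared the paralogues with each other. Rpl22 and Rpl22l1 passed in no comparison, although under CR in muscle their changes were 0.34 ± 0.14 and 0.36 ± 0.16 (adjusted p = 0.0713 and 0.0962). Rpl22l1 in heart under resveratrol had a change of 0.32 ± 0.12 (adjusted p = 0.0588). Rpl39, a small protein of the exit tunnel, had changes of -0.31 to 0.52 with SEs of 0.24 to 0.36, and its testis-enriched paralogue Rpl39l, read in heart at 16.69 to 240.9, had a change of 0.92 ± 0.57 under CR (adjusted p = 0.26). Rps19bp1 passed in no comparison. Rpl3l gave 9.945 to 38.94 in neocortex, against 5079 to 12930 in heart and 11320 to 19570 in muscle.

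A gene with several probe sets gives a check within the array, since 24 of the 50 genes have more than 1 and 43 of the 106 probe sets end in x or s, the marks of probes that also fit other transcripts. Of 20 genes with at least 2 tested probe sets, all probe sets of a gene changed in the same direction in 10 genes under either diet in heart, in 13 under CR and 12 under resveratrol in muscle, and in 13 and 11 in neocortex. With age the count was 7 genes in heart, 12 in muscle, and 7 for neocortex. Rpl13a, a large subunit protein, had probe sets called in both directions under CR in heart, with 1 rise of 0.40 (adjusted p = 0.001) and falls of 0.61 and 0.87 (adjusted p = 0.0277 and 0.000791). Rpl7l1 was the other such gene, under resveratrol in heart.

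Other genes of translation did not follow a single direction. Of 23 translation factors and other known TOP transcripts, 10 rose and 3 fell under CR in neocortex, where 13.1% of all genes rose and 17.5% fell. Under resveratrol 6 rose and none fell, where 12.3% and 13.9% did. Eif3m and Eif3e, subunits of initiation factor eIF3, rose by 0.54 ± 0.08 and 0.53 ± 0.07 under CR, and Eif3h and Eif4b, another eIF3 subunit and a cofactor of the helicase eIF4A, rose by 0.33 ± 0.05 and 0.27 ± 0.07 under resveratrol. Eef2, the factor that moves the ribosome along the mRNA, fell by 0.36 and Pabpc1, the poly-A binding protein, fell by 0.24 under CR. In muscle, where members rose, 1 of the 23 rose and 5 fell under CR, where 17.5% of all genes rose and 13.6% fell, and none rose and 6 fell under resveratrol, where 9.42% and 9.26% did. There Pabpc1 fell by 0.96 and Eif4a2, a form of the helicase, by 0.81 under CR, and Eif4a2 fell by 0.70 and Eif2s3x, a subunit of eIF2, by 0.61 under resveratrol, while Eef1b2, an exchange factor of elongation, rose by 0.61 ± 0.18 under CR.

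In heart 2 of the 23 rose and 1 fell with age, 5 rose and 5 fell under CR, and 1 rose and 7 fell under resveratrol. Of all genes there 7.05% rose and 3.79% fell with age, 7.94% and 14.1% under CR and 7.08% and 10.5% under resveratrol. Eef2 rose by 0.58 ± 0.09 with age and fell by 0.84 under CR and by 1.05 under resveratrol (adjusted p = 0.000111, 2.61e-07 and 2.45e-08), all 3 of which rest on the same old control arrays. Eif3a, the largest subunit of eIF3, rose by 0.45 ± 0.10 with age. Eif3m went the other way, with a fall of 0.32 with age and rises of 0.56 ± 0.09 and 0.33 ± 0.09 under CR and resveratrol. Hnrnpa1, an RNA-binding protein whose mRNA is a known TOP transcript, rose by 0.51 ± 0.13 under CR, and Eif3b fell by 0.36 under CR and by 0.56 under resveratrol. Fau, which encodes a small subunit protein fused to a ubiquitin-like one, rose by 0.26 ± 0.08 with age in heart (adjusted p = 0.0477) and passed in no other of the comparisons with age or diet.

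Of 39 genes of ribosome biogenesis, 11 fell and none rose under CR in heart, and 8 fell and 1 rose under resveratrol, where 14.1% and 10.5% of all genes fell and 7.94% and 7.08% rose. Rrp9, a protein of the U3 particle that processes ribosomal RNA, fell by 1.46 and Dkc1, the pseudouridine synthase dyskerin, by 0.96 under CR in heart. Under resveratrol Rrp9 fell by 1.56 and Polr1a, the largest subunit of RNA polymerase I, by 0.60, while Polr1c, a subunit shared by RNA polymerases I and III, rose by 0.44 ± 0.15. In muscle 5 fell and 1 rose under CR and 6 fell and 1 rose under resveratrol, where 13.6% and 9.26% of all genes fell and 17.5% and 9.42% rose. Nop58 and Nolc1, nucleolar proteins, fell by 0.72 and 0.71 under CR and by 0.78 and 0.77 under resveratrol, Polr1c rose by 0.53 ± 0.16 under CR and Gar1, a protein of the pseudouridylation particles, rose by 0.59 ± 0.18 under resveratrol.

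In neocortex 11 of the 39 biogenesis genes rose and 2 fell under CR, and 6 rose and 4 fell under resveratrol, where 13.1% and 12.3% of all genes rose and 17.5% and 13.9% fell. Polr1c and Wdr12, the latter a factor of large subunit assembly, each rose by 0.55 under CR, and Polr1c and Mybbp1a, a nucleolar protein, by 0.42 ± 0.09 and 0.36 ± 0.10 under resveratrol. Rrp9 fell by 1.47 and Dkc1 by 0.49 under CR, and Rrp9 by 1.57 and Bysl, a factor of small subunit assembly, by 0.34 under resveratrol. With age, 1 of the 39 fell in heart (Ebna1bp2, a nucleolar protein, by 0.52), where 3.79% of all genes fell, and none passed in muscle or neocortex (limma).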

How the data were processed

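The deposited values were one signal intensity per probe set and array, computed by the authors from the scanned arrays with GCOS 1.2, on a linear scale, and scaled to a trimmed mean of 500. Here arrays of a tissue were brought to one 2% trimmed mean, and log2 was taken after a floor of 1. Of 45101 probe sets, 64 controls, 932 with several gene symbols and 9160 with none were left out. The probe set with the highest mean signal stood for a gene.

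For each tissue 1 model held all 4 groups (limma 3.58.1 under R 4.3.3, moderated with an intensity trend), and tissues were compared in 1 model of the 12 groups. All p values are two-sided and adjusted by Benjamini and Hochberg over all genes tested (13285 in heart, 12831 in muscle, 13057 in neocortex, 11111 in all 3), with a threshold of 0.05. Age is old control minus young control, and each diet is compared with old controls. The fit was tested on simulated data. Figures and exact permutation tests used Python 3.11.15.

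Named genes are a fixed list of paralogues, stalk proteins and Rpsa, Rps6, Rpl10a and Rps19bp1, plus the up to 3 largest called rises and falls of each comparison, up to 3 for each pair of tissues, and up to 2 called genes in each direction from the other lists. Any other member is named as one of those called, and Rpl13a and Rpl35 after their values were seen. The members and lists were chosen with earlier results of these data known.

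Promoter windows came from RefSeq (GRCm38.p6). Alternatives were other scalings, filters, probe set rules and tests, and each array left out in turn. Fold changes are compressed by background and cross-hybridisation on such arrays, most for probe sets ending in x or s.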

Additional observations from a re-analysis of the deposited data

Results flagged for a closer look

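In 11 of 95 groups of 5 arrays, 1 array lay far from the other 4. The measure was the gap of that array to its nearest neighbour as a share of the group's range, on the log2 scale. Chance flags about 1 in 20 groups. Rpl27a in heart old control replicate 2 was 1000, with the others at 1189 to 1272 (share 0.72). Rpl4 in heart old CR replicate 2 was 43950, with the others at 37050 to 38150 (share 0.829). Rpl6 in heart old CR replicate 2 was 21750, with the others at 19360 to 19760 (share 0.824). Rpl6 in heart old control replicate 4 was 18000, with the others at 16930 to 17220 (share 0.723). Rpl3l in heart old resveratrol replicate 5 was 5079, with the others at 7784 to 9159 (share 0.724). Rpl3l in heart old control replicate 5 was 9405, with the others at 10480 to 10860 (share 0.752). Rpl27a in muscle old CR replicate 2 was 2414, with the others at 1527 to 1707 (share 0.757). Rps18 in muscle old control replicate 1 was 31890, with the others at 21580 to 23230 (share 0.811). Rpl27a in neocortex old control replicate 3 was 499, with the others at 327.7 to 358.2 (share 0.788). Rpl37 in neocortex old CR replicate 1 was 1153, with the others at 1455 to 1591 (share 0.722). The mean over the members in muscle was 0.51 in old resveratrol replicate 2 and 0.38 to 0.41 in the others (share 0.751).

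In 62 tests of members, a change differed between 2 tissues in the model of all 60 arrays (limma). Differences are on the log2 scale, first tissue minus second. The CR change was higher in heart than in muscle by a difference of 0.59 for Rpl4 (adjusted p = 0.0001). The CR change was lower in heart than in muscle by a difference of -0.59 for Rpl13a (adjusted p = 0.00137), -0.48 for Rpl22 (adjusted p = 0.00848), -2.44 for Rpl27a (adjusted p = 5.8e-10), -0.53 for Rpl35 (adjusted p = 0.00429), -1.39 for Rpl37 (adjusted p = 8.1e-07), -0.57 for Rpl38 (adjusted p = 0.000219), -0.37 for Rpl7 (adjusted p = 0.0135), -0.91 for Rpl7l1 (adjusted p = 6.05e-06), -0.46 for Rplp2 (adjusted p = 0.00669), -0.38 for Rps14 (adjusted p = 0.0248), -0.81 for Rps18 (adjusted p = 0.000219), -0.51 for Rps19bp1 (adjusted p = 0.044), -0.66 for Rps2 (adjusted p = 0.000152), -0.35 for Rps24 (adjusted p = 0.0193), -0.91 for Rps25 (adjusted p = 0.00258), -0.57 for Rps26 (adjusted p = 0.00234), -0.85 for Rps27l (adjusted p = 0.000446), -0.49 for Rps28 (adjusted p = 0.00456), -0.40 for Rps7 (adjusted p = 0.0441) and -0.62 for Rpsa (adjusted p = 0.000311). The resveratrol change was higher in heart than in muscle by a difference of 0.49 for Rpl4 (adjusted p = 0.00138). The resveratrol change was lower in heart than in muscle by a difference of -0.48 for Rpl13a (adjusted p = 0.0112), -2.34 for Rpl27a (adjusted p = 2.97e-09), -1.24 for Rpl37 (adjusted p = 9.11e-06), -0.44 for Rpl38 (adjusted p = 0.00477), -0.31 for Rpl7 (adjusted p = 0.0488), -0.62 for Rpl7l1 (adjusted p = 0.00175), -0.53 for Rps18 (adjusted p = 0.0167), -0.52 for Rps26 (adjusted p = 0.00633) and -0.36 for Rpsa (adjusted p = 0.0407). The resveratrol change was lower in heart than in neocortex by a difference of -0.44 for Rpl13a (adjusted p = 0.0497), -1.53 for Rpl27a (adjusted p = 0.000199), -0.75 for Rpl7l1 (adjusted p = 0.00108), -0.45 for Rplp0 (adjusted p = 0.0127) and -0.41 for Rpsa (adjusted p = 0.0452). The CR change was higher in muscle than in neocortex by a difference of 0.42 for Rpl22 (adjusted p = 0.0267), 1.29 for Rpl27a (adjusted p = 0.000267), 1.28 for Rpl37 (adjusted p = 5.64e-06), 0.54 for Rps18 (adjusted p = 0.0154) and 0.83 for Rps25 (adjusted p = 0.00764). The CR change was lower in muscle than in neocortex by a difference of -0.53 for Rpl4 (adjusted p = 0.000606) and -0.51 for Rplp0 (adjusted p = 0.00119). The age change was higher in heart than in muscle by a difference of 0.82 for Rpl27a (adjusted p = 0.0478) and 0.78 for Rps6 (adjusted p = 0.0152). The age change was lower in heart than in muscle by a difference of -0.56 for Rpl22l1 (adjusted p = 0.0478), -0.42 for Rpl27 (adjusted p = 0.0361), -0.48 for Rpl4 (adjusted p = 0.00659), -0.44 for Rpl7a (adjusted p = 0.0199), -0.39 for Rplp0 (adjusted p = 0.0352), -0.55 for Rps19 (adjusted p = 0.0411), -0.53 for Rps3a1 (adjusted p = 0.0102) and -0.48 for Rps7 (adjusted p = 0.0405). The CR change was lower in heart than in neocortex by a difference of -1.14 for Rpl27a (adjusted p = 0.00286), -0.83 for Rpl7l1 (adjusted p = 0.000158), -0.66 for Rps2 (adjusted p = 0.000623), -0.84 for Rps27l (adjusted p = 0.00174) and -0.41 for Rpsa (adjusted p = 0.0337). The resveratrol change was higher in muscle than in neocortex by a difference of 0.82 for Rpl27a (adjusted p = 0.0295) and 0.63 for Rpl37 (adjusted p = 0.0292). The resveratrol change was lower in muscle than in neocortex by a difference of -0.51 for Rpl4 (adjusted p = 0.00135) and -0.66 for Rplp0 (adjusted p = 8.51e-05).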

How the results depend on the processing

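Counts are members called in the order age, CR, resveratrol and CR against resveratrol, where the analysis as reported gave 3, 12, 5 and 2 in heart, 0, 15, 10 and 0 in muscle and 0, 19, 20 and 3 in neocortex. In heart, the count for age was 1 with no filter, with the methods' t-test on log2 or unlogged signals, with only the 2 groups compared and without the arrays that stood apart (chosen after seeing the data), and 7 with every probe set on its own. The count for CR was 33 with arrays centred on the median and 25 with every probe set. That for resveratrol was 9 with median centring, 8 and 9 with the t-test on log2 and unlogged signals, 8 with only 2 groups, 13 with every probe set and 8 without probe sets ending in x or s. That for CR against resveratrol was 9 with median centring and 1 with either t-test, probe sets averaged or no probe sets ending in x or s. In muscle, the count for age was 7 with median centring, 1 with every probe set and 10 without the arrays that stood apart. The count for CR was 7 and 6 with the t-tests, 8 with 2 groups and 31 with every probe set. That for resveratrol was 5 with median centring, 19 and 21 with the t-tests, 19 with 2 groups, 6 with probe sets averaged or eBayes without its trend, and 20 without the arrays that stood apart. In neocortex, the count for CR was 12 with quantile normalization or the unlogged t-test and 29 with every probe set. That for resveratrol was 36 with every probe set and 12 with probe sets averaged. That for CR against resveratrol was 1 with either t-test or 2 groups and 9 with every probe set. With every probe set, 59, 78 and 74 were called between young heart and muscle, heart and neocortex, and muscle and neocortex. More units were tested with every probe set and fewer samples with 2 groups. The cause of a different count was not tested for any setting, these 2 included.

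With each array left out in turn, the counts ran from 1 to 3, 8 to 10, 5 to 6 and 2 to 3 in heart, 0 to 2, 10 to 21, 5 to 10 and 0 to 1 in muscle, and 0 to 0, 13 to 23, 17 to 23 and 1 to 4 in neocortex. The count in muscle was 2 for age without young control replicate 4, and 1 for CR against resveratrol without old CR replicate 2. Same-numbered arrays of a tissue did not deviate together (correlations from -0.2 to 0.172, with 5 of 90 pairs over 0.1). The main model does not pair arrays by number. Same-numbered arrays were not compared with those of unlike number, and pairing across tissues was not tested. With the replicate block the counts were 2, 9, 5 and 3 in heart, 0, 16, 11 and 0 in muscle and 0, 17, 19 and 3 in neocortex.

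Counts of members whose change differed between tissues moved as well. For age, heart against muscle, the 10 became 6 with quantile normalization or probe sets averaged, 5 with centring on the 90th percentile and 4 with no filter. The 0 for heart against neocortex became 1 or 2 in 7 alternatives, and the 0 for muscle against neocortex became 6 with median centring and 1 with every probe set. For CR, median centring gave 38 in place of 5 for heart against neocortex and 23 in place of 7 for muscle against neocortex, and the latter was 12 with the 90th percentile. Every probe set gave 41, 11 and 12 in place of 21, 5 and 7, and averaging gave 1 for heart against neocortex. For resveratrol, median centring gave 4, 14 and 10 in place of 10, 5 and 4, and every probe set gave 19 for heart against muscle. Heart against neocortex was 3 with the 90th percentile, no filter or eBayes without its trend and 1 with probe sets averaged.

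Of 49 changes of named genes, 12 kept their direction and call in all alternatives and with each array left out, 35 lost the call in at least 1, and 11 turned. Median centring gave changes of -0.0991 for Rpl4, -0.148 for Rpl6 and -0.0646 for Rps3a1 under CR in heart and of -0.0103 for Rpl7 and -0.0756 for Rpsa under CR in muscle. The mean of all probe sets gave -0.11 for Rpl27a with age in heart, -0.78 for Rpsa under CR in muscle, -0.0789 for Rps18 and -0.0524 for Rps6 under resveratrol in muscle, -0.041 for Rpsa under resveratrol in neocortex and 0.0713 for Rps20 between the diets in neocortex. Without probe sets ending in x or s, Rpl41 under CR in heart was 0.21, Rps18 under resveratrol in muscle -0.27 and Rps20 between the diets in neocortex 0.34. Probe sets not well above the dim end of the array limit the mean of all probe sets. The values of Rpl41 and Rps20 without those endings also rest on far dimmer probe sets than the chosen ones.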
